A study of Mus musculus with 5 samples.

Results

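CpG methylation in the exons of 20707 mouse genes was described in 5 libraries of reduced representation bisulfite sequencing (RRBS), an assay in which DNA is cut with MspI at CCGG sites and converted with bisulfite, so that CpG-rich stretches are read preferentially. An exon row is the deposited methylation level of 1 Ensembl gene ID in the class exon and the CG context. The 20707 rows are those listed in all 5 libraries, out of 22066 exon rows listed in at least 1 library and out of 154711 CG regions of 8 classes listed in all 5. Beside exons, the classes are introns, promoters, the UTRs at either end of the transcript, CpG islands and their shores, and repeats. Levels are given as percent methylated, and differences in percentage points. The sources used here do not say how the sites of a gene's exons were pooled or how many reads lie behind a level.

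The groups, all of strain C57BL6 and each with 1 library, were pESC-PGCLC, ESC-PGCLC, PGC, pESC and female ESC. pESC-PGCLC and ESC-PGCLC are primordial germ cell-like cells made in culture from the parthenogenetic line and the female line. Those lines were kept in t2iL medium, turned into epiblast-like cells for 46 hours, grown for 4 days as floating aggregates with BMP4, LIF, SCF and EGF, and sorted for cells positive for both CD61 and SSEA1. PGC are primordial germ cells taken from E12.5 fetal gonads with magnetic beads against SSEA1, a cell surface carbohydrate that pluripotent cells also carry. pESC is a parthenogenetic embryonic stem cell line, whose genome is maternal only, and female ESC is an embryonic stem cell line with a maternal and a paternal genome. Both lines were grown on feeder cells in serum with LIF. The labels do not say whether a group was 1 clone, 1 culture or a pool of animals. With 1 library a group there is no replicate error, so each difference below compares 2 libraries and has no test.

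In mammals, DNA methylation sits mainly on the cytosine of CpG. CpG islands at the start of many genes are kept free of it, also where the island runs into the first exon, while exons and introns further along the gene are commonly methylated. Naive culture conditions and development into germ cells are both known for broad loss of methylation, including that of gene bodies. Imprinted regions keep a mark from 1 parent, so that a maternal-only genome carries the maternal mark on both copies until germ cells erase it.

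The exon rows carry no sequence. Of the 20707 rows, 359 held the same 5 levels as exactly 1 island or shore, compared to 7 decimals of the percent, and could be placed on the genome through it. They are 252 rows at islands and 107 at shores. A pair of RefSeq promoters (build GRCm38.p6, 250 bases before to 50 bases after the gene's start) is shown because they overlap such an island, 1 with almost no methylation in any library and 1 methylated in every library. CpG dinucleotides are in capitals. The first is the promoter of Sash1, which encodes an adaptor protein, at chr10:8886021-8886320 on the minus strand, and all 300 bases lie in the island. The second is the promoter of Dpep3, which encodes a dipeptidase of the testis, at chr8:105979370-105979669 on the minus strand, and 180 of its bases lie in the island.
Sash1: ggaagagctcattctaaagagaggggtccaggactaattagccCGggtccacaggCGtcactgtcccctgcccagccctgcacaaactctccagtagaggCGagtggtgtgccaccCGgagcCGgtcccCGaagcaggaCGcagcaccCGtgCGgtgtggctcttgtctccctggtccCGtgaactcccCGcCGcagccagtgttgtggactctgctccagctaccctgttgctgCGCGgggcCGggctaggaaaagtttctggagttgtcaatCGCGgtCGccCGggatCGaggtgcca
Dpep3: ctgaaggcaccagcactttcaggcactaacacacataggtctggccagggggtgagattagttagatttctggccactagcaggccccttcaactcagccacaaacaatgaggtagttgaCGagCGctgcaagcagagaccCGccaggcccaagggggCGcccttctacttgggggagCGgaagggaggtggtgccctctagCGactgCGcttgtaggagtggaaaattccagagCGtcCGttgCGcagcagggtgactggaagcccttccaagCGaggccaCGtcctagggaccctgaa

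The Sash1 promoter holds 20 CG, a word that reads the same on both strands, and 26.5% of 32851 RefSeq promoters of the same length hold as many. The Dpep3 promoter holds 12, a number reached by 39.6% of them. The median promoter holds 7. The exon row with the levels of the Sash1 island was methylated at 1.55% in pESC-PGCLC, 1.63% in ESC-PGCLC, 1.32% in PGC, 2.23% in pESC and 1.73% in female ESC. The row with the levels of the Dpep3 island was methylated at 59.3% in pESC-PGCLC, 69.2% in ESC-PGCLC, 54.4% in PGC, 69.4% in pESC and 74.5% in female ESC. The low row stays within 1 point in the 5 libraries, while the high row is lowest in PGC and highest in female ESC.

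Exon methylation was lowest in PGC and highest in female ESC. The mean over the 20707 rows was 19.4% in pESC-PGCLC, 20.6% in ESC-PGCLC, 18.2% in PGC, 21.4% in pESC and 23.0% in female ESC. As a share of the female ESC mean, that was 84.4% in pESC-PGCLC, 89.5% in ESC-PGCLC, 79.4% in PGC and 93.2% in pESC. The median row differed less, with 10.4% in pESC-PGCLC, 10.6% in ESC-PGCLC, 10.3% in PGC, 11.5% in pESC and 10.98% in female ESC. The means part and the medians nearly do not, so the libraries differed in the upper range of exon levels. The 95th percentile was 59.3% in pESC-PGCLC, 63.3% in ESC-PGCLC, 54.9% in PGC, 63.8% in pESC and 69.9% in female ESC. Rows at 60% or more numbered 962 in pESC-PGCLC, 1424 in ESC-PGCLC, 549 in PGC, 1544 in pESC and 2468 in female ESC. Rows at 80% or more numbered 47 in pESC-PGCLC, 75 in ESC-PGCLC, 23 in PGC, 74 in pESC and 219 in female ESC. Between 39.6% and 40.8% of rows were under 5% in each of the 5 libraries. The spread over rows was wide in every library, with an SD of 18.8 points in PGC and 24.6 points in female ESC.

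**Figure D1:**
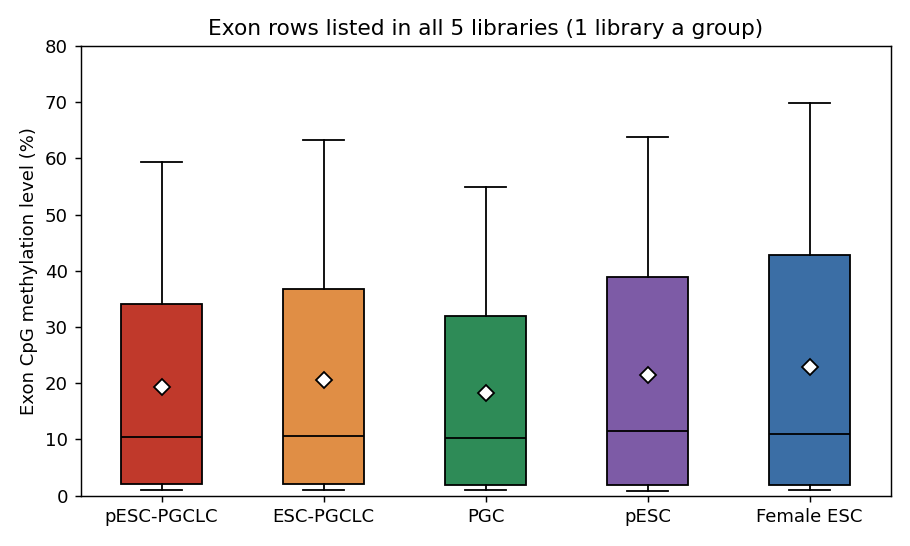
Exon CpG methylation level in percent over 20707 rows in each of the 5 libraries. Boxes run from the 25th to the 75th percentile with a line at the median, whiskers reach the 5th and 95th percentiles and diamonds are means; the 95th percentile is 54.9% in PGC and 69.9% in female ESC, while the medians lie between 10.3% and 11.5%.

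The gap between PGC and female ESC in exons was of the size seen in most other classes. The PGC mean was 79.4% of the female ESC mean in exons, 79.8% in introns, 79.98% in promoters, 78.8% in 3′ UTRs, 81.7% in 5′ UTRs, 81.2% in repeats and 87.2% in islands. Fetal germ cells of this stage are known for having lost most methylation, and the PGC exon mean was 18.2%. Cells other than germ cells in the bead fraction cannot be counted from these levels, and their part in the PGC values was not tested.

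Rows were grouped by their mean over the 5 libraries. Of the 20707 rows, 8257 (39.9%) had a mean under 5%, 6036 (29.1%) from 5% to 30%, 5153 (24.9%) from 30% to 60% and 1261 (6.09%) of 60% or more. Within 1 point of the 5% edge lay 597 rows below and 470 above, within 1 point of the 30% edge 200 below and 188 above, and within 1 point of the 60% edge 134 below and 116 above. The bands use the same levels they describe, so the height of a band is fixed by its choice and the order of the libraries within it is not.

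In rows under 5% the libraries were nearly level. The mean there was 2.10% in pESC-PGCLC, 2.08% in ESC-PGCLC, 2.00% in PGC, 1.98% in pESC and 1.93% in female ESC. Female ESC, highest over all rows, was lowest in this band, by less than 0.2 points. Methylation called outside CpG in these rows spanned a like range, but in a different order, with pESC below female ESC and ESC-PGCLC highest. The CHH level, where H is any base but G, was 0.712% in pESC-PGCLC, 0.734% in ESC-PGCLC, 0.674% in PGC, 0.581% in pESC and 0.594% in female ESC. Non-CpG calls hold real methylation as well as unconverted cytosines, and their part in the low CpG levels was not tested.

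In the band from 5% to 30% the 2 stem cell lines stood above the other 3 libraries. The mean was 14.7% in pESC-PGCLC, 15.3% in ESC-PGCLC, 14.3% in PGC, 16.8% in pESC and 17.1% in female ESC. In the band from 30% to 60% it was 41.5% in pESC-PGCLC, 44.7% in ESC-PGCLC, 38.7% in PGC, 46.4% in pESC and 51.1% in female ESC. At 60% or more it was 64.5% in pESC-PGCLC, 68.3% in ESC-PGCLC, 59.8% in PGC, 68.7% in pESC and 74.0% in female ESC. The order of the 5 libraries was the same in these 3 bands, except that with bands set by the female ESC level pESC lay above female ESC from 5% to 30%. PGC stood at 83.6% of female ESC in the band from 5% to 30%, at 75.7% in the band from 30% to 60% and at 80.8% in the band of 60% or more, against 103% in the band under 5%.

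PGC was the lowest library and female ESC the highest in most rows where methylation was high. PGC alone was the lowest library in 25.8% of rows under 5%, in 38.6% of rows from 5% to 30%, in 69.7% of rows from 30% to 60% and in 83.3% of rows at 60% or more. Female ESC alone was the highest in 16.7%, 42.1%, 76.3% and 83.7% of the rows of these bands. The complete order of the 5 means, with PGC lowest, then pESC-PGCLC, ESC-PGCLC and pESC, and female ESC highest, was kept by 1.16% of rows under 5% and by 30.3% of rows at 60% or more. The median distance between the highest and the lowest library of a row was 0.933 points under 5%, 6.25 points from 5% to 30%, 14.2 points from 30% to 60% and 14.9 points at 60% or more.

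**Figure D2:**
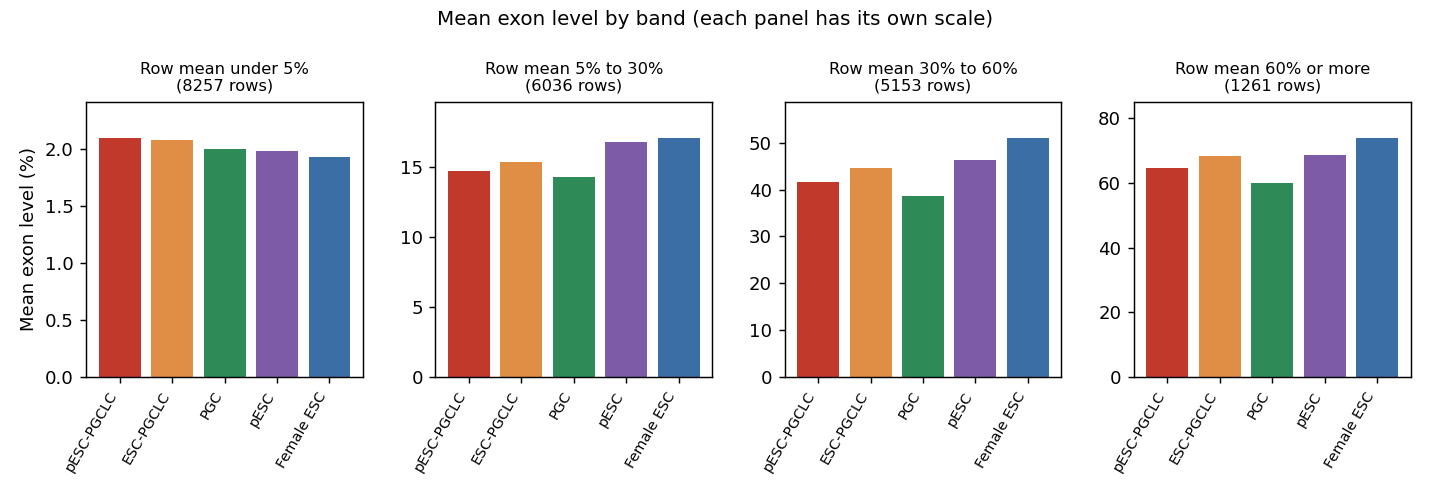
Mean exon level in percent by library in 4 bands of the row mean, each panel with its own axis from 0. Bars are means over the rows of the band with no error bar, as each group has 1 library; the bars are nearly level under 5%, and PGC is lowest and female ESC highest in the other 3 bands.

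Differences of at least 25 points between 2 libraries were found in under 2% of exon rows in each comparison and direction. This size was used as the call, with no test. In pESC against female ESC, 65 rows were higher (0.314% of exon rows) and 76 lower (0.367%), against 0.379% and 0.696% of all CG regions. With the overall shift between the libraries taken out as 1 factor the balance turned, to 82 higher and 51 lower. The mean difference over all exon rows was −1.57 points. In rows at 60% or more it was −5.28 points, with 68.7% in pESC and 74.0% in female ESC. From 5% to 30% it was −0.29 points, with 16.8% in pESC and 17.1% in female ESC, and it turned to 0.38 points when the bands were set by the female ESC level. The difference between the lines thus lay in the more methylated rows.

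The PGC-like libraries had lower exon levels than the lines they were made from. The sequenced lines were grown in serum on feeders while the cells induced had passed through t2iL medium, so the induction and the change of medium cannot be told apart. In ESC-PGCLC against female ESC the mean difference was −2.40 points, 63.0% of rows were lower, and 47 rows were higher (0.227%) and 90 lower (0.435%) by the call, against 0.335% and 0.928% of all CG regions. With the overall shift taken out there were 67 higher and 60 lower. In pESC-PGCLC against pESC the mean difference was −2.02 points, 63.5% of rows were lower, and 16 rows were higher (0.0773%) and 41 lower (0.198%), against 0.143% and 0.365% of all CG regions, and with the shift taken out 30 were higher and 31 lower. At 60% or more, the differences were −5.73 points for ESC-PGCLC against female ESC and −4.20 points for pESC-PGCLC against pESC. They were larger from 30% to 60%, at −6.43 points for ESC-PGCLC and −4.82 points for pESC-PGCLC. That order turned with bands set by the female ESC level. There ESC-PGCLC had −6.33 points from 30% to 60% and −7.94 at 60% or more, and pESC-PGCLC −4.51 and −4.85. In rows with a mean under 5% over the 5 libraries both differences were slightly positive, at 0.15 and 0.12 points. The CHH levels were also higher there in the PGC-like libraries.

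Both PGC-like libraries stood above PGC. In ESC-PGCLC against PGC the mean difference was 2.34 points, and 42 rows were higher (0.203%) and 18 lower (0.0869%), against 0.432% and 0.14% of all CG regions. With the overall shift taken out the balance turned, to 13 higher and 22 lower. In pESC-PGCLC against PGC the mean difference was 1.16 points, and 23 rows were higher (0.111%) and 14 lower (0.0676%), against 0.294% and 0.14% of all CG regions, and it too turned with the shift taken out, to 9 higher and 16 lower. The distance in points grew with the level. In rows at 60% or more it was 8.45 points for ESC-PGCLC, with 94.4% of rows higher, and 4.70 points for pESC-PGCLC, with 87.2% of rows higher. As a share of the PGC mean the upper 2 bands were nearly alike. ESC-PGCLC stood at 115.5% from 30% to 60% and at 114.1% at 60% or more, and pESC-PGCLC at 107.4% and 107.9%. These comparisons share the PGC library.

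pESC-PGCLC lay a little below ESC-PGCLC. The mean difference was −1.18 points, and 16 rows were higher (0.0773%) and 27 lower (0.130%), against 0.206% and 0.308% of all CG regions, and with the shift taken out 21 were higher and 19 lower. In rows from 30% to 60% the difference was −3.15 points, with 41.5% in pESC-PGCLC and 44.7% in ESC-PGCLC.

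PGC against female ESC gave the most calls of the 8 comparisons. There 45 rows were higher (0.217%) and 309 lower (1.49%), against 0.28% and 2.31% of all CG regions. The mean difference was −4.74 points, and −14.2 points in rows at 60% or more, where 97.7% of rows were lower. When the overall shift was taken out as 1 factor, the balance turned to 101 higher and 71 lower, against 45 and 309 without that step. In PGC against pESC, 13 rows were higher (0.0628%) and 51 lower (0.246%), against 0.0911% and 0.487% of all CG regions, and with the overall shift taken out 26 were higher and 27 lower. In all 8 comparisons the share of exon rows called was below that of all CG regions in both directions. That share is high in repeats, and in PGC and pESC against female ESC most single classes were called less often than exons. In PGC against female ESC the rows lower by 25 points made up 1.49% of exons, 1.21% of introns, 1.19% of promoters, 0.583% of 5′ UTRs and 0.155% of islands, against 3.37% of 3′ UTRs and 5.12% of repeats. In pESC against female ESC the higher rows made up 0.314% of exons, 0.260% of introns, 0.191% of promoters and 0.753% of repeats.

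At least 10 points is a looser call that reaches into the middle bands. In PGC against female ESC it took 233 exon rows as higher and 5092 as lower, against 1.38% and 27% of all CG regions, where the exon shares were 1.13% and 24.6%. In PGC against pESC it took 114 as higher and 2368 as lower (11.4%), against 0.95% and 11.7% of all CG regions. In pESC against female ESC 420 rows were higher (2.03%) and 1376 lower (6.65%), against 2.01% and 8.01% of all CG regions. The exon share of higher rows was thus near that of all regions for pESC against female ESC, as was that of lower rows for PGC against pESC. In ESC-PGCLC against female ESC 281 rows were higher (1.36%) and 1762 lower (8.51%), against 1.72% and 10.5% of all CG regions. In pESC-PGCLC against pESC 152 were higher (0.734%) and 1062 lower (5.13%), against 1.28% and 5.55%. In ESC-PGCLC against PGC 1529 were higher (7.38%) and 101 lower (0.488%), against 8.52% and 1.01%. The rows at least 10 points above PGC numbered 522 in pESC-PGCLC (2.52%), against 4.01% of all CG regions, and 128 were at least that far below (0.618%), against 1.34%. In pESC-PGCLC against ESC-PGCLC 136 were higher (0.657%) and 591 lower (2.85%), against 1.37% and 3.94%. By this call too, the PGC-like libraries had more rows below their line of origin than above it, and more rows above PGC than below it.

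**Figure D3:**
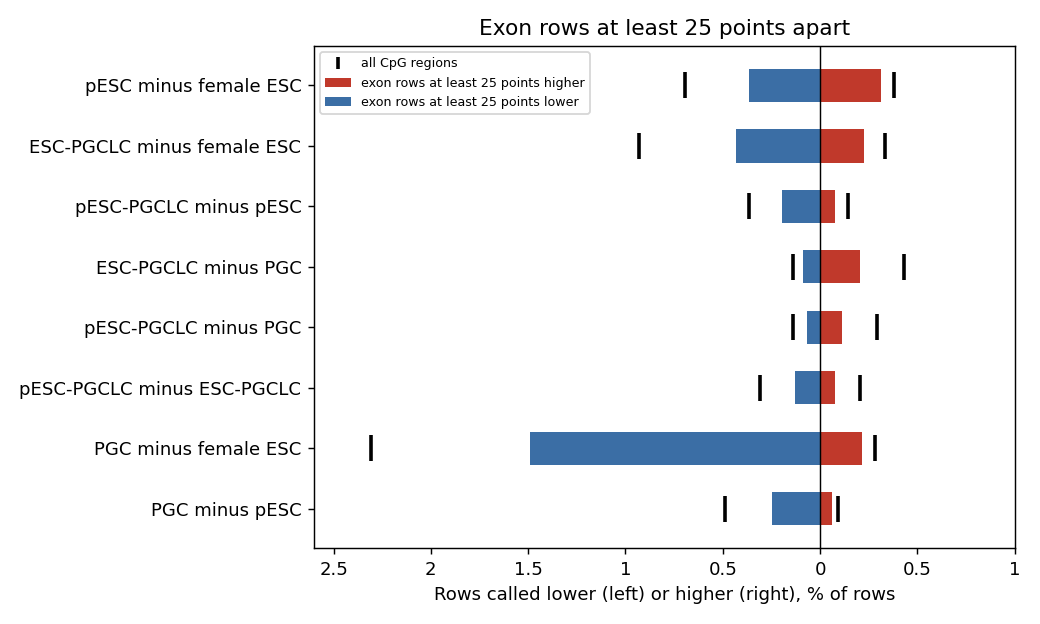
Percent of exon rows at least 25 points lower (blue, to the left) or higher (red, to the right) in 8 comparisons of 2 libraries, with black marks for all CG regions. The longest bar is PGC minus female ESC, with 1.49% of exon rows lower against 2.31% of all CG regions, and each bar ends short of its mark.

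Between pESC and female ESC, most calls in an exon were not shared by the intron row of the same gene. Those introns were still called more often than introns in general. Of the 65 exon rows higher in pESC than in female ESC, 52 had an intron row in all 5 libraries. Among these, 5 introns were also at least 25 points higher, against 0.260% of all introns. The median intron difference of the 52 was −0.23 points. Of the 76 lower exon rows, 46 had an intron row, with a median intron difference of −2.94 points. Among these, 3 introns were called lower, against 0.361% of all introns. Most exon calls between the lines therefore stood without a like difference in the intron row. Of the 309 exon rows lower in PGC than in female ESC, 194 had an intron row. Among those introns 171 were lower, against 73.3% of introns in the 15924 genes with both rows. By 25 points 18 were lower, against 1.21% of all introns. Their median difference was −12.3 points, against −3.15 points in the introns of the 15924 genes. Most of the 309 rows lay in the higher bands, with 204 from 30% to 60% and 72 at 60% or more. Among all genes with an exon row in these bands, 86.8% and 87.6% of introns were lower, with medians of −9.2 and −10.5 points. The share of lower introns among the called genes was thus near that of genes with similarly methylated exons. In PGC against female ESC the introns of the called genes were thus lower too, by a smaller amount. Sharing of the call by promoters varied between comparisons. Of the 16 exon rows higher in pESC-PGCLC than in ESC-PGCLC, 10 had a promoter row, of which 6 were called higher. An intron row was held by 9, of which 3 were called higher. The shares over each whole class were 0.123% of promoters and 0.0751% of introns. Of the 18 exon rows lower in ESC-PGCLC than in PGC, 11 had a promoter row, of which 6 were called lower, and 11 an intron row, of which 4 were. The class shares there were 0.0981% of promoters and 0.0451% of introns. These sets of calls share the ESC-PGCLC library and some of their rows. Between pESC and female ESC the promoter was called in 8 of 47 genes with a higher exon and in 4 of 50 with a lower one. The shares of all promoters were 0.191% and 0.265%. For ESC-PGCLC against female ESC the counts were 0 of 37 and 1 of 55, against 0.103% and 0.378% of all promoters. For PGC against female ESC they were 6 of 32 and 19 of 161, against 0.142% and 1.19%. For pESC-PGCLC against PGC they were 0 of 12 and 0 of 6, against 0.0687% and 0.0294%.

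No Ensembl ID could be paired with a gene symbol, so single rows are given by ID, with no role. Among rows at neither exactly 0 nor 100% in any library, the one highest in pESC over female ESC was ENSMUSG00000052812, with 80% in pESC and 0.556% in female ESC. It was at 1.52% in pESC-PGCLC, 0.485% in ESC-PGCLC and 5.26% in PGC, so that pESC alone was high, and its intron row lay between 27.9% and 33.3% in all 5 libraries. The next was ENSMUSG00000107825, with 80.1% in pESC and 11.8% in female ESC. It was also high in pESC-PGCLC (68.2%) and PGC (67.2%) and low in ESC-PGCLC (11.3%). Among the same rows the lowest was ENSMUSG00000065887, with 23.1% in pESC and 88.9% in female ESC, and with 18.2% in pESC-PGCLC, 23.1% in ESC-PGCLC and 20.7% in PGC, so that female ESC alone was high. ENSMUSG00000003402 had 15.6% in ESC-PGCLC and 70.2% in female ESC, and its intron row moved the same way, with 38.6% in ESC-PGCLC and 65.8% in female ESC. ENSMUSG00000042641 was lower after both inductions. It had 24.6% in pESC-PGCLC against 75.9% in pESC, and 26.4% in ESC-PGCLC against 79.3% in female ESC, while PGC was at 21.4%. Its intron row was lower too but by far less, with 47.5% in pESC-PGCLC against 49.6% in pESC and 50.5% in ESC-PGCLC against 57.4% in female ESC. So was its promoter row, with 59.2% against 66.7% and 64.6% against 68.75% in the same pairs.

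The 2 comparisons of the maternal-only with the female line's genome, pESC against female ESC and pESC-PGCLC against ESC-PGCLC, have no library in common. They called 9 of the same rows higher, which is 13.8% of 65 and 56.2% of 16, and 7 of the same rows lower, which is 9.21% of 76 and 25.9% of 27. The higher calls made up 0.314% and 0.0773% of all exon rows, and the lower calls 0.367% and 0.130%. Over all exon rows the 2 differences had the same direction in 56.2% of rows, with 49.6% under 5%, 49.3% from 5% to 30%, 69.6% from 30% to 60% and 77.6% at 60% or more. The rows share library-wide shifts, so these shares are descriptions.

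In the 9 shared higher rows, pESC-PGCLC ran from 37.7% to 78.4% with a median of 68.2%, and ESC-PGCLC from 2.32% to 33.0% with a median of 20.4%. pESC ran from 43.2% to 80.1% with a median of 67.4%, and female ESC from 1.98% to 36.9% with a median of 23.3%. PGC, which had no part in choosing the rows, ran from 35.6% to 71.2% with a median of 59.3%. In each of the 9 rows PGC lay above female ESC, by 19.6 to 55.3 points, at least 23.7 points above ESC-PGCLC, and below both maternal-only libraries. The low female ESC and ESC-PGCLC levels were part of the choice. Among the 56 rows called higher in pESC against female ESC alone, PGC also lay above female ESC in 50, and the difference between pESC-PGCLC and ESC-PGCLC had a median of −0.19 points.

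Neighbouring classes of the 9 rows often differed too. Of 7 with a promoter row, 6 promoters were at least 25 points higher in both comparisons, and of 4 with an intron row 3 introns were. In pESC against female ESC, 0.191% of all promoters and 0.260% of all introns were called higher. In pESC-PGCLC against ESC-PGCLC it was 0.123% of promoters and 0.0751% of introns. The class share called in both comparisons at once was not counted. For ENSMUSG00000000948 the exon level was 76.8% in pESC-PGCLC and 20.4% in ESC-PGCLC, 70.8% in PGC, and 76.4% in pESC and 35.0% in female ESC. Its promoter level was 78.1% in pESC-PGCLC and 29.6% in ESC-PGCLC, 66.1% in PGC, and 77.5% in pESC and 33.1% in female ESC. ENSMUSG00000102627 had the same intron levels as this gene in all 5 libraries, so 2 of the 3 called introns may hold the same sites. Its exon levels were near but not equal, with 78.4% in pESC-PGCLC and 36.0% in female ESC. These 2 of the 9 rows may therefore not be separate, but shared exon sites are not shown. ENSMUSG00000044068 was almost unmethylated in the female line, with 44.2% in pESC-PGCLC and 2.32% in ESC-PGCLC, 37.2% in PGC, and 43.2% in pESC and 1.98% in female ESC. ENSMUSG00000027523 differed in its exons only by the call, with 45.3% in pESC and 16.0% in female ESC there, against 8.01% in pESC and 5.22% in female ESC in its promoter. ENSMUSG00000000948, ENSMUSG00000044068 and ENSMUSG00000027523 are named as parts of the 9 rows and were chosen after their values were seen. One of the 9, ENSMUSG00000106847, held the levels of the island at chr15:72809537-72810123, which overlaps Peg13, a paternally expressed long noncoding RNA inside Trappc9. That island was methylated at 74.2% in pESC-PGCLC and 33.0% in ESC-PGCLC, 63.2% in PGC, and 77.8% in pESC and 36.9% in female ESC.

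The 7 shared lower rows looked different. Their 4 intron rows and 6 promoter rows held none that was 25 points lower in both comparisons, and 3 of the 7 exon rows were at exactly 0 or 100% in a library. Their median was 23.1% in pESC-PGCLC and 52.9% in ESC-PGCLC, and 40% in pESC and 66.7% in female ESC.

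**Figure D4:**
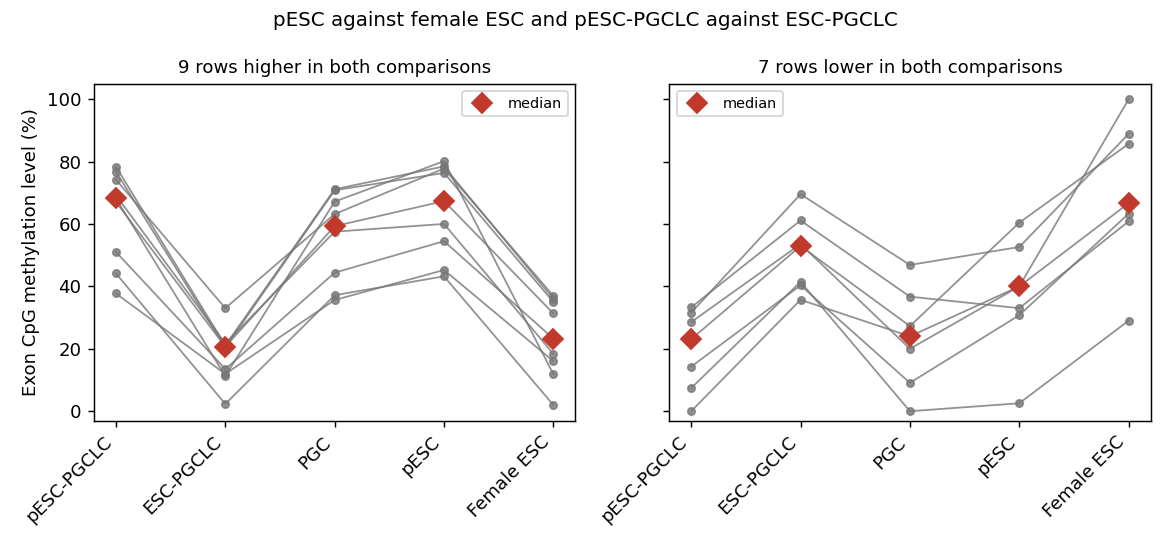
Exon level in percent in the 5 libraries for the 9 rows higher (left) and the 7 rows lower (right) in both pESC against female ESC and pESC-PGCLC against ESC-PGCLC; grey lines join the values of 1 row and red diamonds are medians. In the left panel PGC, not used to choose the rows, has a median of 59.3%, near the 2 maternal-only libraries.

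The 2 inductions, which also have no library in common, called 7 of the same rows higher, of 47 and 16, and 10 of the same rows lower, of 90 and 41. Of all exon rows, 0.227% and 0.0773% were called higher by the 2 inductions, and 0.435% and 0.198% lower. The 2 differences had the same direction in 64.6% of all rows, and in 81.4% of rows at 60% or more. At 60% or more, 90.5% of rows were lower in ESC-PGCLC against female ESC and 85.9% in pESC-PGCLC against pESC. A library-wide shift alone gives much shared direction there, so these shares are descriptions.

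Exons were set against the intron row of the same gene in 15924 genes listed for both classes in all 5 libraries. The mean exon level was 17.6% in pESC-PGCLC, 18.5% in ESC-PGCLC, 16.5% in PGC, 19.5% in pESC and 20.6% in female ESC. The mean intron level of the same genes was 21.7% in pESC-PGCLC, 22.9% in ESC-PGCLC, 20.4% in PGC, 24.3% in pESC and 25.5% in female ESC. Exons were thus the less methylated class in each library, and the exon lay above the intron in 38.5% to 39.5% of genes. The median difference, exon minus intron, was −1.49 points in pESC-PGCLC, −1.37 in ESC-PGCLC, −1.42 in PGC, −1.55 in pESC and −1.22 in female ESC. Across genes, Spearman's rho between exon and intron levels was 0.51 to 0.52 within a library. Genes are not replicates, and some sites may count in both classes, since 56 genes had equal exon and intron levels in all 5 libraries.

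The sign of the difference changed with the level of the exon. Under 5% the median difference was −3.53 points in PGC and −2.97 points in female ESC, and at 60% or more it was 18.7 points in PGC and 21.8 points in female ESC. These bands were set by the exon rows, so highly methylated exons are set against introns of any level. With bands set by the intron row the sign turned round. Where the intron was at 60% or more, in 401 genes, the median difference was −23.5 points in PGC and −25.3 points in female ESC. Where the intron was under 5%, in 4011 genes, it was 0.05 points in PGC and 0.09 points in female ESC, and the mean exon level was 5.55% in PGC and 6.29% in female ESC. Exon and intron fell in the same band in 8060 genes (50.6%).

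**Figure D5:**
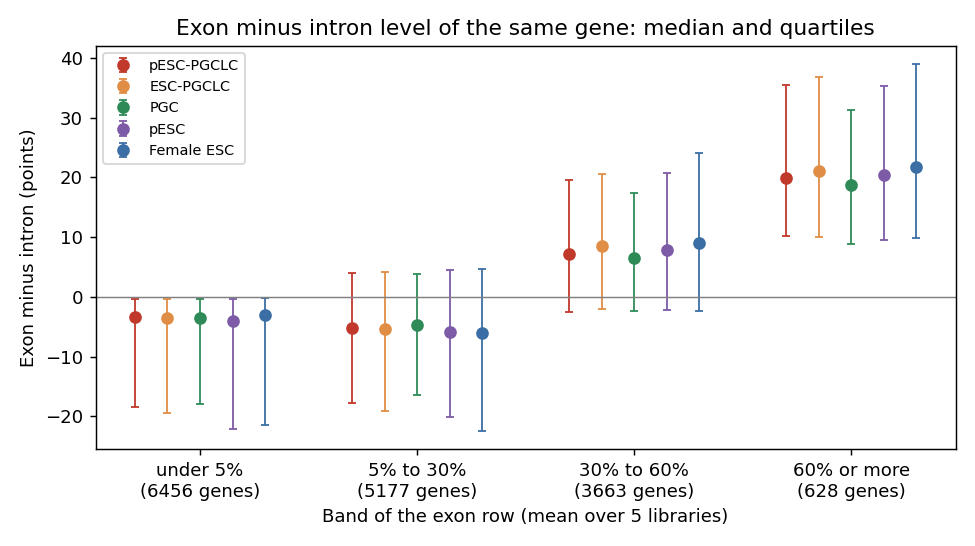
Exon minus intron level of the same gene in percentage points, by the band of the exon row, in 15924 genes. Points are medians and bars reach from the lower to the upper quartile over genes, not over replicates; the medians lie below 0 in the 2 lower bands and above 0 in the 2 higher bands in each library.

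Some genes differed widely between exon and intron in every library. In each library separately, the exon was at least 25 points above the intron in 5.67% of genes in pESC-PGCLC, 6.05% in ESC-PGCLC, 4.5% in PGC, 6.38% in pESC and 7.79% in female ESC. The exon was at least 25 points below in 12.7% of genes in pESC-PGCLC, 14.2% in ESC-PGCLC, 11.4% in PGC, 15.5% in pESC and 16.8% in female ESC. It was above by that much in all 5 libraries in 585 genes (3.67%), and below in all 5 in 1621 genes (10.2%). In the 585 genes the promoter row, which the choice did not use, had a low median that was still above the one over all genes. Over the 445 of them with a promoter row its median was 4.17% in pESC-PGCLC, 4.19% in ESC-PGCLC, 3.96% in PGC, 4.24% in pESC and 3.78% in female ESC. Over all 15951 genes with an exon and a promoter row it was 2.67% in pESC-PGCLC, 2.61% in ESC-PGCLC, 2.53% in PGC, 2.52% in pESC and 2.43% in female ESC. In the 1621 genes the promoter median, over 1412 genes, lay below that of all genes, with 2.17% in PGC and 2.08% in female ESC. Their promoter mean was 6.41% in PGC and 7.66% in female ESC. Over the 15951 genes the promoter mean was 10.03% in PGC and 12.5% in female ESC.

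Exons and introns differed between libraries in nearly the same proportion over all genes, but not in the lower exon bands. Over the 15924 genes the PGC mean was 79.9% of the female ESC mean in exons and 80.1% in introns. ESC-PGCLC stood at 89.8% of female ESC in exons and 89.6% in introns, and pESC-PGCLC at 89.9% of pESC in exons and 89.3% in introns. The PGC minus female ESC difference had the same direction in exon and intron in 67.7% of genes. In points, the exon difference of PGC against female ESC was −14.4 in genes with an exon row at 60% or more, against −9.57 in their introns, which started from a lower level. As shares of female ESC these were 80.5% in exons and 80.2% in introns. In the 6456 genes with an exon row under 5%, PGC stood at 103% of female ESC in exons and at 84.2% in introns, and in the 5177 genes from 5% to 30% at 84.3% in exons and 79.7% in introns. These bands hold the exon low by choice and leave the intron free, so the contrast follows from the choice. With bands set by the intron it turned round. Where the intron was under 5%, in 4011 genes, the intron mean was 2.33% in PGC and 2.17% in female ESC. The mean exon level there was 5.55% in PGC and 6.29% in female ESC.

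Genes with no intron row in any library, 4416 in all, had more methylated exons. Their mean exon level was 26.1% in pESC-PGCLC, 27.9% in ESC-PGCLC, 24.6% in PGC, 28.3% in pESC and 31.4% in female ESC. The 16291 genes with an intron row had 17.6% in pESC-PGCLC, 18.6% in ESC-PGCLC, 16.5% in PGC, 19.5% in pESC and 20.7% in female ESC. PGC stood at 78.2% of female ESC without an intron row and at 79.8% with one.

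Exons were more methylated than the start of the gene and less than its end. In 15951 genes with a promoter row the promoter mean was 10.03% in PGC and 12.5% in female ESC, against exon means of 15.1% in PGC and 18.8% in female ESC. In 11647 genes with a 5′ UTR row the 5′ UTR mean was 3.98% in PGC and 4.88% in female ESC, against exon means of 12.3% in PGC and 14.9% in female ESC. In 4435 genes with a 3′ UTR row the 3′ UTR mean was 33.5% in PGC and 42.5% in female ESC, against exon means of 21.3% in PGC and 26.6% in female ESC. The classes overlap. Of the 11647 genes, 1087 had identical exon and 5′ UTR levels in all 5 libraries, and of the 4435 genes 209 had identical exon and 3′ UTR levels. The exon rows of these genes may thus hold only sites of a UTR.

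Exon levels were higher in genes with a methylated promoter. Where the promoter was under 5% in female ESC, in 10199 genes, the mean exon level was 9.42% in PGC and 11.1% in female ESC. Where it was 60% or more, in 812 genes, it was 41.1% in PGC and 52.7% in female ESC. An unmethylated promoter stood beside methylated exons in 93 genes, which had a row mean of 60% or more in exons and under 5% in the promoter. Their mean exon level was 63.3% in pESC-PGCLC, 66.1% in ESC-PGCLC, 58.4% in PGC, 67.1% in pESC and 72.8% in female ESC. The reverse, an exon under 5% with a promoter at 60% or more, was found in 17 genes.

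Among the 359 rows that could be placed, 264 were under 5%, 53 from 5% to 30%, 25 from 30% to 60% and 17 at 60% or more, so they are weighted to unmethylated islands. A placed row holds the levels of the island or shore, and the genes below are those at that position, not a reading of the row's ID. Of the 17 high rows, 11 lay at 1 gene, of which 5 were pseudogenes, against 5 pseudogenes among the 184 rows under 5% that lay at 1 gene. Rows at 1 gene held 5 pseudogenes of 38 from 5% to 30%, 5 of 17 from 30% to 60%, and 20 of 250 over all placed rows. The genes of the high rows included Pdha2, the testis form of the E1 alpha subunit of pyruvate dehydrogenase, at the island chr3:141211320-141211889. Its level was 68.4% in pESC-PGCLC, 77.3% in ESC-PGCLC, 67.3% in PGC, 79.0% in pESC and 81.5% in female ESC. The row at Lemd1, at the island chr1:132229003-132229380, went against the order of the class, with 68.4% in pESC-PGCLC, 66.7% in ESC-PGCLC, 75.6% in PGC, 72.8% in pESC and 77.2% in female ESC.

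The row at Ch25h, which encodes cholesterol 25-hydroxylase, at the island chr19:34474264-34475032, was at 8.81% in pESC-PGCLC, 15.7% in ESC-PGCLC, 6.25% in PGC, 21.9% in pESC and 32.0% in female ESC. PGC and pESC-PGCLC were thus low and female ESC high there. The row at the pseudogene Gm5124 on chromosome X was at exactly 0 in pESC, with 36.1% in pESC-PGCLC, 51.6% in ESC-PGCLC, 33.6% in PGC and 69.0% in female ESC. The row at Areg, which encodes a ligand of the EGF receptor, was at 35.2% in pESC-PGCLC, 40.1% in ESC-PGCLC, 35.9% in PGC, 41.7% in pESC and 51.6% in female ESC.

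Listing differed between libraries. Exon rows listed numbered 21570 in pESC-PGCLC, 21630 in ESC-PGCLC, 21532 in PGC, 21458 in pESC and 20907 in female ESC, and 359 rows were missing from female ESC alone. Levels of exactly 0 were held by 95 rows in pESC-PGCLC, 89 in ESC-PGCLC, 113 in PGC, 130 in pESC and 159 in female ESC, and levels of exactly 100% by 1 row each in pESC-PGCLC, ESC-PGCLC and PGC, 2 in pESC and 11 in female ESC. Female ESC thus listed the fewest rows and held the most rows at exactly 0 and at exactly 100%. The depth of the libraries is unknown, and its part in these numbers was not tested. The 368 rows (1.78%) at exactly 0 or 100% in at least 1 library were kept.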

How the data were processed

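RRBS libraries of 5 groups, 1 each, were compared. Per the submitters' processing notes, Bismark 0.16.3, Bowtie2 and mm10 were used. No source used here gives the trimming, a coverage filter or how regions were drawn. Each deposited level is a fraction between 0 and 1 for 1 region and context, printed as percent. The levels hold no read counts, so depth is unknown, and no interval or test was possible. Means, medians and differences were computed with pandas 2.3.3 in Python 3.11.15 and tested on simulated data.

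The members, bands and the 25-point call were chosen with earlier results of these data known. Gene lists by symbol, and the naming of genes by symbol, could not be applied, because 0 Ensembl IDs were paired with a symbol. In their place at most 2 IDs per direction and comparison were named, from rows at neither 0 nor 100%. Placing rows by levels identical to an island or shore was chosen after values were seen. Among placed rows at 1 gene, the 3 nearest each band's median, all at 60% or more and all past 25 points were eligible, and a selection is printed. RefSeq coordinates gave the genes. Positions are as deposited, with the counting base not stated. A result on 1 placed row is not reported here.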

Additional observations from a re-analysis of the deposited data

Results flagged for a closer look

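A pair of exon rows moved in opposite directions in comparisons that share no library, and the difference between the comparisons was not tested. ENSMUSG00000035273 differed by 37.7 points in pESC against female ESC and by −48.4 points in pESC-PGCLC against ESC-PGCLC. The same row differed by 39.0 points in ESC-PGCLC against female ESC and by −47.1 points in pESC-PGCLC against pESC. Its levels were 2.04% in pESC-PGCLC, 50.4% in ESC-PGCLC, 23.1% in PGC, 49.1% in pESC and 11.4% in female ESC, while its intron row lay between 39.5% and 57.2%. ENSMUSG00000106713 differed by −26.2 points in pESC against female ESC and by 42.5 points in pESC-PGCLC against ESC-PGCLC. Its levels were 80% in pESC-PGCLC, 37.5% in ESC-PGCLC, 31.2% in PGC, 23.8% in pESC and 50.0% in female ESC.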

How the results depend on the processing

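Each group has 1 library, so leaving out a replicate could not be done. No paired analysis was possible because each group has 1 library. A value was taken as moved past 1.5 times, or 0.5 points for a mean, as no error is known. Pairs of counts are rows higher and lower. At 10 points they were 420 and 1376 in pESC against female ESC, 281 and 1762 in ESC-PGCLC against female ESC, 152 and 1062 in pESC-PGCLC against pESC, 1529 and 101 in ESC-PGCLC against PGC, 522 and 128 in pESC-PGCLC against PGC, 136 and 591 in pESC-PGCLC against ESC-PGCLC, 233 and 5092 in PGC against female ESC, and 114 and 2368 in PGC against pESC. At 40 points, in the same order, they were 20 and 11, 8 and 16, 3 and 14, 4 and 7, 3 and 2, 10 and 3, 11 and 32, and 1 and 13. The median differences over rows were −0.36, −0.59, −0.61, 0.70, 0.40, −0.29, −1.13 and −1.21 points. With the overall shift taken out as 1 factor, higher rows numbered 30 in pESC-PGCLC against pESC, 13 in ESC-PGCLC against PGC, 9 in pESC-PGCLC against PGC, 101 in PGC against female ESC and 26 in PGC against pESC, and lower rows 71 and 27 in the last 2. Over rows listed in the 2 libraries compared, the pairs were 30 and 69 in pESC-PGCLC against pESC, 73 and 34 in ESC-PGCLC against PGC, 43 and 34 in pESC-PGCLC against PGC, 31 and 65 in pESC-PGCLC against ESC-PGCLC, and 26 and 77 in PGC against pESC. Without rows at exactly 0 or 100%, 10 were higher in pESC-PGCLC against pESC, 9 lower in pESC-PGCLC against PGC and 8 higher in PGC against pESC. With bands set by female ESC, the differences from 5% to 30% were −1.04 points in ESC-PGCLC against female ESC, −1.82 in PGC against female ESC and, reversed, 0.38 in pESC against female ESC. With bands set by the other libraries, PGC minus pESC under 5% reversed to −0.00713 points. As percent of the class mean, the median exon minus intron change reversed to −0.17 in PGC against female ESC and to 0.0142 in pESC-PGCLC against PGC. The mean exon minus intron difference over genes was −4.16 in pESC-PGCLC, −4.33 in ESC-PGCLC, −3.95 in PGC, −4.78 in pESC and −4.87 in female ESC. The cause was not tested. Taking out the CHH level moved no mean difference or count over all exon rows past these limits, and it was not run within bands. A few reads would turn a row between 0 and 100%, and without depth such rows cannot be told from well covered ones.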
